A study of Arabidopsis thaliana with 12 samples.

Results

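PRPS10, PRPS6, PRPL17 and PRPL5 are nuclear genes for proteins of the plastid ribosome, the first 2 in its small and the last 2 in its large subunit. They were taken as the genes of these names whose probe the platform's annotation assigns to 1 gene only, and each had 1 such probe, so that 4 of the 691 genes with such a probe are described here, on an array of 3439 probes. The probes are number 1011 for PRPS10 (AT3G13120), 1284 for PRPS6 (AT1G64510), 1739 for PRPL17 (AT3G54210) and 4297 for PRPL5 (AT4G01310). The gene table used for names lists these loci without a symbol, so the protein names come from general knowledge of the loci. Total RNA was compared between 6 samples of the Arabidopsis thaliana mutant atc6, which lacks the cytochrome c6 protein, and 6 wild-type samples (WT). Both were of ecotype Columbia 0, and both grew on MS medium, a mineral medium for plant culture, with no treatment named in the labels. The tissue, the age of the plants, the mutant allele and the number of plants behind a sample are not stated in the labels, so no tissue markers were checked.

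Plastids make part of their proteins themselves, on ribosomes of the bacterial type. The small subunit reads the messenger RNA and the large subunit joins the amino acids, and the products include core proteins of the photosystems and the large subunit of Rubisco. Some ribosomal proteins are encoded in the plastid genome and the others in the nucleus, as these 4 are, to be imported from the cytosol. The missing protein, cytochrome c6, carries haem and is known in algae and cyanobacteria as an electron carrier between the cytochrome complex and photosystem I. Whether the Arabidopsis protein has that role is not addressed by these data.

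The table holds intensities in arbitrary units, and the scaling behind them stays unknown. Sample medians were 0.323 to 4.52 in atc6 and 0.485 to 0.627 in WT. Samples 1 and 2 of atc6 stood apart, at 4.46 and 4.52, and their values are on a scale of their own. Samples 5 and 6 of atc6 had the lowest median, 0.323 each, and the widest spread of probes, with a 90th percentile 40.7 and 45.2 times the 10th, against 14.9 to 30.8 times in the other 10 samples. In both genotypes samples 1 and 2, 3 and 4, and 5 and 6 form doublets, treated here as repeats and averaged. Each genotype thus gives 3 values, and their number limits the precision of all that follows.

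None of the 4 genes passed the test for a difference between atc6 and WT. Their differences, atc6 minus WT on the log2 scale, were 0.66 for PRPS10, 0.14 for PRPS6, 0.07 for PRPL17 and 0.55 for PRPL5. In limma, 0 of the 4 passed an adjusted p of 0.05, as did 0% of the 3329 probes fitted. At an unadjusted p under 0.05 there were again 0 of the 4, against 5.02% of all probes. The 4 differences were all positive, with a median of 0.34, where the median over all probes was 0.04 and 53.9% of the probes had a positive difference. The 4 genes were read from the same arrays, so their signs are not independent of each other. In total RNA, fewer cells of a type and less RNA per cell cannot be told apart.

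PRPS10 is the plastid relative of bacterial ribosomal protein S10, which sits in the head of the small subunit. Its probe had deposited intensities of 1.66, 1.47, 0.438, 0.281, 0.469 and 0.438 in atc6 samples 1 to 6. In WT samples 1 to 6 they were 0.185, 0.185, 0.396, 0.313, 0.229 and 0.197. Leaving aside atc6 samples 1 and 2, the atc6 range of 0.281 to 0.469 and the WT range of 0.185 to 0.396 overlapped, with WT samples 3 and 4 inside the atc6 range. The percentile of a probe among all probes of its own sample does not depend on a sample's scale. For PRPS10 it was 23.4, 21.4, 43.7, 26.6, 64.8 and 62.2 in atc6 samples 1 to 6 and 14.05, 14.1, 40.9, 32.3, 20.4 and 17.8 in WT samples 1 to 6. Samples 5 and 6 of atc6 were thus the high pair, and WT samples 3 and 4 lay above atc6 samples 1 and 2.

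**Figure D1:**
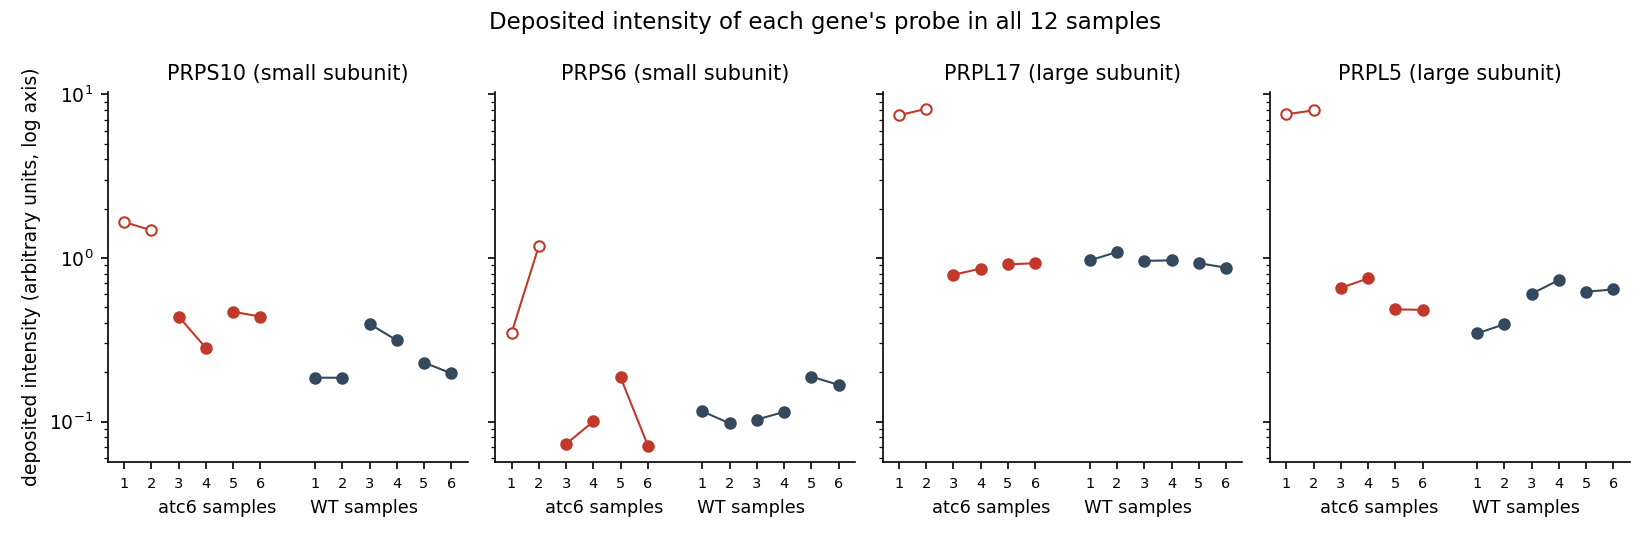
Deposited intensity (arbitrary units, log axis) of the probes of PRPS10, PRPS6, PRPL17 and PRPL5 in samples 1 to 6 of atc6 (red, left) and WT (dark, right); lines join the samples of a doublet, and open circles mark atc6 samples 1 and 2, whose deposited scale differs. Apart from these open circles, the values of the 2 genotypes overlap for each gene, as with PRPL17 at 0.789 to 0.928 in atc6 samples 3 to 6 and 0.871 to 1.09 in WT. Sample medians also differ among the filled circles, at 0.323 in atc6 samples 5 and 6 and 0.485 to 0.627 in WT. As a multiple of the sample median, PRPL17 was at 2.82 and 2.87 in these atc6 samples and 1.54 to 1.98 in WT.

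For the fit the samples were quantile-normalized, which gives all of them the same distribution, and a level below is log2 of the normalized intensity plus a pseudocount of 0.267. The PRPS10 levels of the averaged doublets 1 and 2, 3 and 4, and 5 and 6 were -0.48, 0.01 and 0.94 in atc6 and -0.95, 0.08 and -0.65 in WT. The groups overlapped. The mean level was 0.16 ± 0.72 in atc6 and -0.51 ± 0.53 in WT (SD, n = 3 averaged doublets each). The difference of 0.66 ± 0.42 (SE) corresponds to 1.58-fold, with a 95% interval of 0.81 to 3.10-fold, and had adjusted p = 0.845 in limma over all probes. In 2 of the 6 WT samples the normalized intensity was below the pseudocount, which compresses the fold. The difference was 0.95 ± 0.60 (SE) with a pseudocount at the 1st percentile of positive values and 0.49 ± 0.32 at the 25th. With cyclic loess, another scaling of the samples, it was 0.34 ± 0.41 (SE). Among the 4 genes PRPS10 varied most between doublets of a genotype, with an SD of 0.63 that exceeded that of 87.0% of the probes.

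The difference of PRPS10 rests largely on atc6 samples 5 and 6, without which it was 0.27 (adjusted p = 0.844). These are the samples with the widest spread of probe intensities, and the part of that spread in the result was not tested.

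PRPS6 is the plastid relative of bacterial S6, a small-subunit protein that binds beside S18 in bacteria. Its probe was among the dim ones. The deposited intensities were 0.347, 1.18, 0.0728, 0.1002, 0.186 and 0.0714 in atc6 samples 1 to 6 and 0.115, 0.0974, 0.103, 0.115, 0.188 and 0.167 in WT samples 1 to 6. Its percentile lay between 8.78 and 30.4 in atc6 (median 12.02) and between 8.75 and 16.3 in WT (median 11.7). Only atc6 sample 5 was above the 20th percentile, and the genotypes overlapped.

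The repeats of PRPS6 disagreed in atc6. The higher value of a doublet was 3.41 times the lower in atc6 samples 1 and 2, 1.38 times in 3 and 4, and 2.61 times in 5 and 6, against 1.11 to 1.18 times in the 3 WT doublets. In the other 3 genes no doublet of either genotype exceeded 1.56 times.

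**Figure D2:**
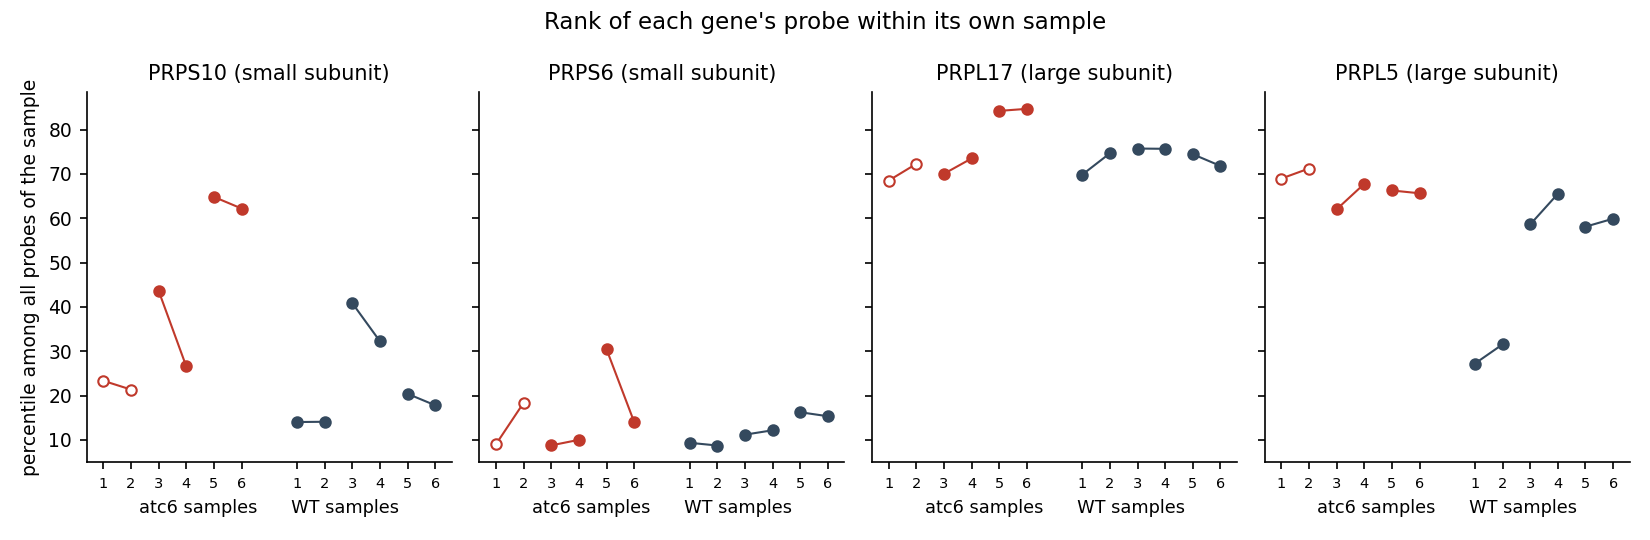
Percentile of each gene's probe among all 3439 probes of the same sample, for samples 1 to 6 of atc6 (red, left) and WT (dark, right), with lines joining doublets and open circles for atc6 samples 1 and 2. PRPS10 is highest in atc6 samples 5 and 6 (64.8 and 62.2), PRPL5 is lowest in WT samples 1 and 2 (27.2 and 31.5), and PRPL17 stays between 68.5 and 84.7 throughout.

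The PRPS6 levels of the averaged doublets were -1.04, -1.34 and -0.54 in atc6 and -1.38, -1.12 and -0.83 in WT. The mean level was -0.97 ± 0.40 in atc6 and -1.11 ± 0.27 in WT (SD, n = 3), a difference of 0.14 ± 0.28 (SE). The 95% interval ran from 0.70 to 1.73-fold and the adjusted p in limma was 0.933. The sign of this difference is not settled: it was -0.04 with samples scaled to a common median and -0.07 without atc6 samples 5 and 6. In 4 of the 6 atc6 samples and 4 of the 6 WT samples the normalized intensity was below the pseudocount, so that a change of PRPS6 would appear compressed on this scale. With a pseudocount at the 1st percentile of positive values the difference was 0.21 ± 0.51 (SE).

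PRPL17 is the plastid relative of bacterial L17, a large-subunit protein near the exit of the peptide tunnel. Over both genotypes its SD between doublets was the lowest of the 4 genes, although in atc6 alone it was 0.27, against 0.09 for PRPL5. The deposited intensities of PRPL17 were 7.44, 8.15, 0.789, 0.860, 0.913 and 0.928 in atc6 samples 1 to 6. In WT samples 1 to 6 they were 0.965, 1.09, 0.959, 0.966, 0.929 and 0.871. As a multiple of the sample's own median, PRPL17 was at 1.67, 1.81, 1.58, 1.72, 2.82 and 2.87 in atc6 samples 1 to 6 and at 1.54 to 1.98 in WT. Apart from atc6 samples 5 and 6, all samples of both genotypes fell between 1.54 and 1.98.

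The PRPL17 levels of the averaged doublets were 1.16, 1.20 and 1.64 in atc6 and 1.21, 1.32 and 1.24 in WT. Of the 3 atc6 doublets, 2 lay below all WT doublets and 1 above. The mean level was 1.33 ± 0.27 in atc6 and 1.26 ± 0.06 in WT (SD, n = 3), which differed by 0.07 ± 0.23 (SE). In limma the adjusted p was 0.945. The 95% interval of 0.73 to 1.52-fold is the narrowest of the 4 genes, and the SD between doublets, 0.19, exceeded that of only 13.3% of the probes. The sign turned to -0.08 without atc6 samples 5 and 6.

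PRPL5 is the plastid relative of bacterial L5, which belongs to the central protuberance of the large subunit. Its deposited intensities were 7.55, 7.98, 0.655, 0.749, 0.485 and 0.481 in atc6 samples 1 to 6 and 0.346, 0.393, 0.604, 0.732, 0.622 and 0.642 in WT samples 1 to 6. As a percentile within the sample, PRPL5 was at 68.9, 71.2, 62.0, 67.8, 66.3 and 65.6 in atc6 and at 27.2, 31.5, 58.6, 65.5, 58.1 and 59.9 in WT. The atc6 samples were close to each other, WT samples 1 and 2 were low, and WT sample 4 lay within the atc6 range.

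The PRPL5 levels of the averaged doublets were 1.15, 0.98 and 1.01 in atc6 and -0.18, 0.89 and 0.79 in WT. Here the doublets of the genotypes did not overlap, the only one of the 4 genes for which this was so. Doublets that lay wholly higher in atc6 were found for 193 probes, 5.8% of the 3329 fitted. The mean level of PRPL5 was 1.05 ± 0.09 in atc6 and 0.50 ± 0.59 in WT (SD, n = 3). The difference of 0.55 ± 0.32 (SE) corresponds to 1.46-fold, with a 95% interval of 0.88 to 2.43-fold and adjusted p = 0.845 in limma. Without WT samples 1 and 2 it was 0.21 (adjusted p = 0.990), so that a single WT doublet supplied most of it.

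**Figure D3:**
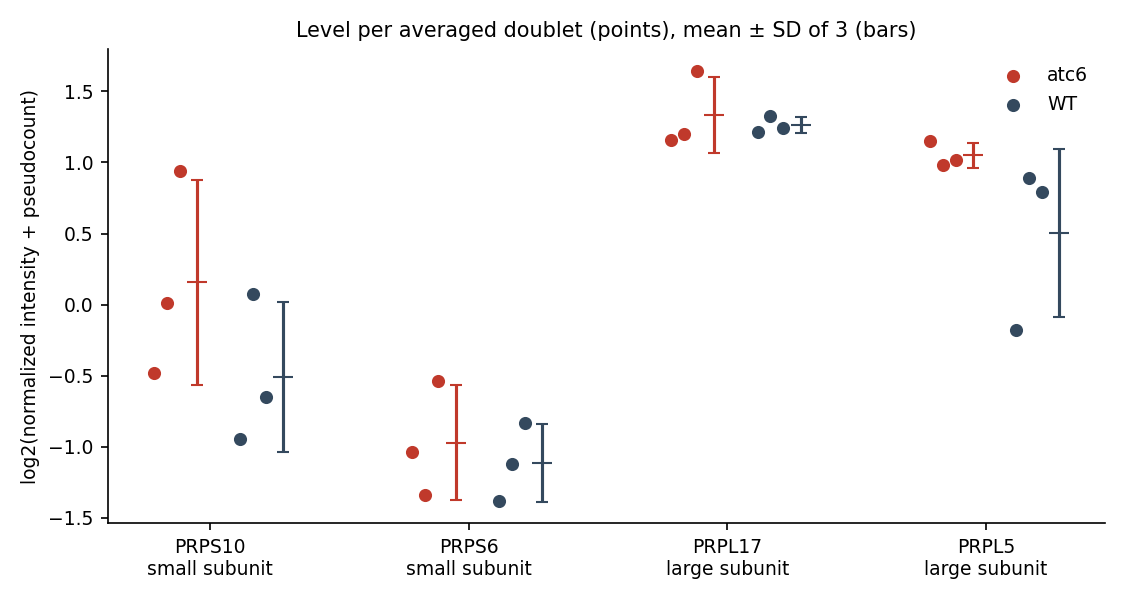
Level, as log2 of the quantile-normalized intensity plus pseudocount, of the 3 averaged doublets (points) of atc6 (red, left of each pair) and WT (dark, right) for each gene, with bars for the mean ± SD of the 3. Only for PRPL5 do all atc6 points (0.98 to 1.15) lie above all WT points (-0.18 to 0.89), and the low WT point is the doublet of samples 1 and 2.

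The small and large subunit genes can be compared in their differences between genotypes and in their ratio within an array. The brightness of different probes cannot be read as different amounts of transcript, because it also depends on the probe. With that limit, the 2 small-subunit probes lay at percentiles of 8.78 to 64.8 in atc6 and 8.75 to 40.9 in WT, and the 2 large-subunit probes at 62.0 to 84.7 in atc6 and 27.2 to 75.7 in WT. The mean level of PRPS10 and PRPS6 was -0.41 ± 0.53 in atc6 and -0.81 ± 0.33 in WT (SD, n = 3), a difference of 0.40. That of PRPL17 and PRPL5 was 1.19 ± 0.12 in atc6 and 0.88 ± 0.32 in WT (SD, n = 3), a difference of 0.31.

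The log2 ratio of small over large subunit genes was -1.91, -1.76 and -1.13 in the atc6 doublets and -1.68, -1.63 and -1.76 in the WT doublets. The 3 WT doublets were close together, with a mean of -1.69 ± 0.06 (SD). That closeness belongs to the averaged ratio only. Ratios of a single small over a single large subunit gene had SDs of 0.27 to 0.47 in WT and 0.20 to 0.78 in atc6. The atc6 doublets averaged -1.60 ± 0.41 (SD), with samples 5 and 6 above all WT doublets, samples 1 and 2 below all of them, and samples 3 and 4 within the WT range. The ratio differed between genotypes by 0.09, less than its spread between atc6 doublets, and by -0.14 without atc6 samples 5 and 6. Its sign also turned under other scalings, to -0.11 with a common median, -0.10 with cyclic loess and -0.33 on the values as deposited. The size depended on the pseudocount too, at 0.20 with the 1st percentile of positive values and 0.04 with the 25th. Normalized intensities fell below the pseudocount in PRPS6 and PRPS10 but never in PRPL17 or PRPL5, so the small-subunit side is compressed more. No test was made of this ratio, since its members were chosen with earlier results of these data known.

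**Figure D4:**
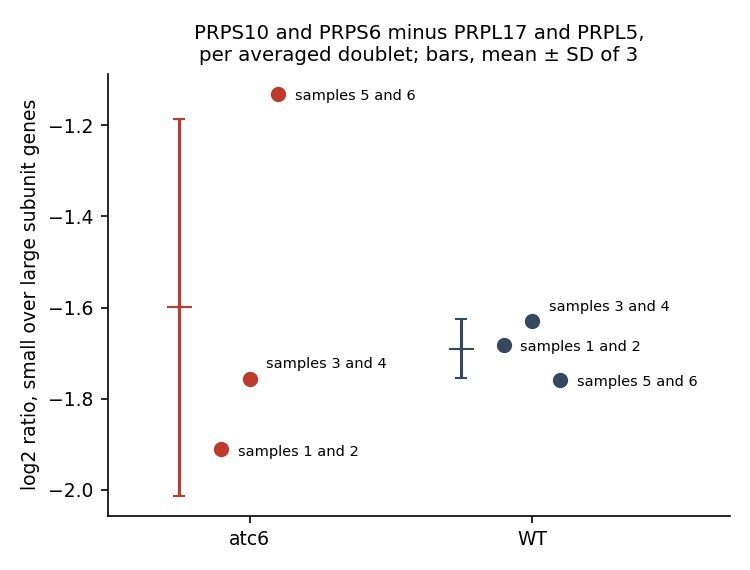
Log2 ratio of the small over the large subunit genes (mean level of PRPS10 and PRPS6 minus that of PRPL17 and PRPL5) per averaged doublet in atc6 (red, left) and WT (dark, right), with bars for the mean ± SD of 3. The WT doublets lie between -1.76 and -1.63, and the atc6 doublets between -1.91 and -1.13.

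Within each subunit the differences of the 2 genes were unequal in size. The differences of PRPS10 and PRPS6 were 0.66 and 0.14, and those of PRPL5 and PRPL17 were 0.55 and 0.07. The log2 ratio of PRPS10 over PRPS6 was 1.13 ± 0.50 in atc6 and 0.60 ± 0.53 in WT, and that of PRPL17 over PRPL5 was 0.29 ± 0.32 in atc6 and 0.76 ± 0.55 in WT (SD, n = 3 each), with differences of 0.52 and -0.47 that are no larger than the larger SD of each ratio and were not tested. Over the 6 averaged doublets, which share arrays and normalization, Pearson's r was 0.84 for PRPS10 with PRPL17, 0.76 for PRPS6 with PRPL17 and 0.60 for PRPS10 with PRPS6. For PRPL5 it was 0.59 with PRPS10, 0.49 with PRPS6 and 0.21 with PRPL17, the last being 0.42 without atc6 samples 1 and 2. The closest pairs thus joined genes of different subunits, and the average of atc6 samples 5 and 6 was the highest of the 6 doublets for PRPS10, PRPS6 and PRPL17, in PRPS6 through sample 5.

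Few other genes of the plastid ribosome could be matched to a probe of their own. Of a list of 62 genes for its proteins, nuclear and plastid, 41 were found in the gene table, and only these could be matched. Among them 6 had a probe of their own: the 4 above, PRPL34 (AT1G29070) and PRPL29 (AT5G65220). Whether the 1877 unnamed probes of the array include others is unknown. PRPL34, which encodes the plastid relative of another large-subunit protein, was listed at 0 in 5 of the 6 atc6 samples, with 0.00535 in sample 5. In WT it was listed at 0 in samples 4 and 6 and at 0.204, 0.133, 0.149 and 0.140 in samples 1, 2, 3 and 5. Its averaged doublets lay wholly lower in atc6, as did those of 5.38% of all probes, and the fitted difference of -0.53 (adjusted p = 0.845 in limma) rests on values listed at 0 and so on the pseudocount. PRPL29 was listed at 0 in all 12 samples. Of 19 genes for plastid translation factors and for factors that assemble the ribosome, 1 had its own probe: AT5G46420, a relative of the bacterial processing factor RimM, also listed at 0 in all 12 samples. Of the 5 listed genes that entered the fit, 0 passed the test, as did 0% of all probes fitted. PRPL34 alone had an unadjusted p under 0.05 (0.0497 in limma), as did 5.02% of all probes.

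The genes whose doublet levels ran most like those of the 4 were sought among 610 other probes assigned to a single gene and above 0 in all samples. For PRPS10 the highest Pearson's r over the 6 averaged doublets was 0.98, with AT1G73470, which differed by 0.44 ± 0.34 (SE) between genotypes, followed by AT4G03150 (r = 0.96) and AT1G19490 (r = 0.94). For PRPL5 it was 0.97 with both AT2G38950 and AT1G65370, whose differences were 0.52 and 0.66, followed by AT4G24750 (r = 0.90). PRPL17 ran closest to FATB (r = 0.96), which encodes a thioesterase of plastid fatty acid synthesis, then to AT1G78620 (r = 0.96) and AT2G44760 (r = 0.94). PRPS6 ran closest to AT1G50000 (r = 0.94), AT4G27510 (r = 0.93) and AT2G34450 (r = 0.93). No plastid ribosomal protein gene was among the first 3 of another. Only the other members could have been, because PRPL34 and PRPL29 had values at 0 and were not searched, so no conclusion is drawn from this. With 6 points that share arrays these values describe likeness only, and 0.492% to 1.15% of the probes searched exceeded an r of 0.9.

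**Figure D5:**
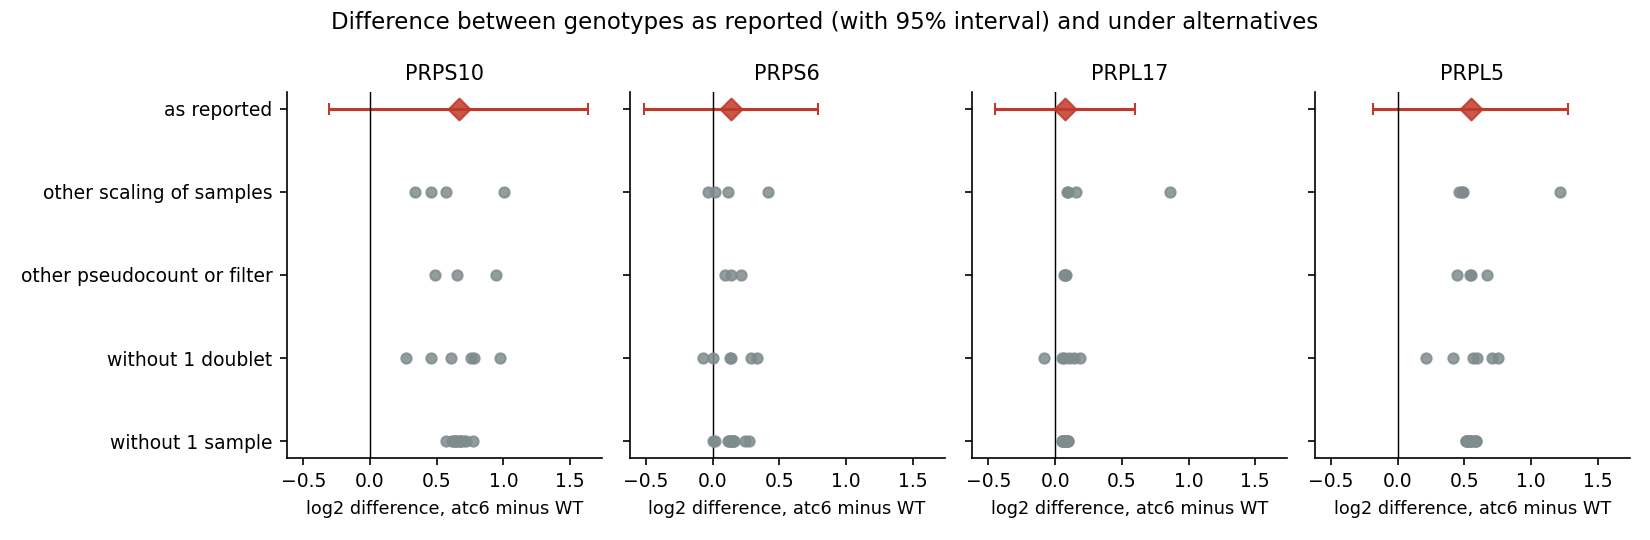
Log2 difference, atc6 minus WT, of each gene as reported (red diamond with its 95% interval) and recomputed (grey points) with other scaling of the samples, another pseudocount or filter, or without each doublet or each sample in turn. The reported intervals of all 4 genes include 0, PRPS10 and PRPL5 stay above 0 at every point drawn, and points of PRPS6 and PRPL17 fall on both sides of 0. Points for the values as deposited include the shift of 0.66 in the median of all probes.

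On the values as deposited the differences were 1.01 for PRPS10, 0.41 for PRPS6, 0.86 for PRPL17 and 1.22 for PRPL5, while the median of all probes shifted by 0.66. Relative to that shift they were 0.35, -0.25, 0.20 and 0.56 in the same order of genes. With samples scaled to a common median, where the median of all probes was -0.01, PRPS10 differed by 0.46, PRPL17 by 0.16 and PRPL5 by 0.49. Over the alternatives that treat the samples of a doublet as repeats, the lowest adjusted p was 0.611 for PRPS10, 0.700 for PRPS6, 0.856 for PRPL17 and 0.601 for PRPL5. With all 12 samples entered as if independent, which counts repeats as replicates, the adjusted p was 0.222 for PRPS10, 0.730 for PRPS6, 0.754 for PRPL17 and 0.154 for PRPL5.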

How the data were processed

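The deposited values were taken to be linear intensities, judged from the values themselves. How the authors made them (array, background, scaling) is not stated in the labels. After removal of 110 probes listed at 0 throughout, 3329 were quantile-normalized. The normalization target is the mean of all samples, in which atc6 samples 1 and 2 weigh most because of their larger values. After log2 with a pseudocount of 0.267 (the 10th percentile of positive values), doublets were averaged and compared by lmFit and eBayes of limma 3.58.1 in R 4.3.3, two-sided, with Benjamini-Hochberg adjustment over all probes. The fit was tested only on simulated data with independent noise and changes larger than those of the members. That test therefore does not show how well differences as small as theirs are found. Nothing says that the samples are separate cultures. The p-values of the main fit thus reflect no more than the spread between averaged doublets, perhaps only technical.

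Samples of a doublet correlated at 0.59 to 0.89 in their deviations from the genotype mean, and at most at -0.08 with other samples of the genotype. Subtracting the mean of so few doublets by itself pushes correlations between them below 0, so this contrast is partly built in. Deviations of doublets with the same number in atc6 and WT correlated at 0.07, 0.14 and 0.24. The highest correlation with a doublet of another number was 0.064, 0.064 and -0.050 in the same order, each below that of the same number. Pairing required every same-number correlation to be over 0.1. The first was not, so the numbers were not taken to pair the genotypes.

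The platform annotation may be out of date. It gives 1 gene for 692 probes and several for 870, and 1877 probes are unnamed here. Of the 692, 690 were found by gene ID in the TAIR10.1 gene table, from which only names were taken. The members, lists and tests were chosen with earlier results of these data known. Genes named are the 4 members, other listed genes with their own probe, and for each member the 3 probes with the highest correlation. Sequences and promoter motifs were not analysed here.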

Additional observations from a re-analysis of the deposited data

How the results depend on the processing

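No alternative brought any of the 4 genes past the threshold. PRPS10 kept its sign in all 36 alternatives run for it (0.27 to 1.01) and PRPL5 in all 37 (0.14 to 1.22, the lowest without samples 1 and 2 of both genotypes). Both highest values are those on the values as deposited, where the median of all probes shifted by 0.66. Relative to that shift PRPS10 was at 0.35 and PRPL5 at 0.56. PRPS6, counted below as keeping its sign in that setting, was at -0.25 relative to it. PRPS6 turned in 3 of 36: to -0.035 with common median scaling, and without atc6 samples 5 and 6 to -0.074, or -0.077 with the normalization of 12 samples kept. PRPL17 turned in 2 of 37, to -0.080 without the same samples, or -0.082 with the normalization kept. Leaving out single samples or doublets gave -0.074 to 0.33 for PRPS6 and -0.080 to 0.18 for PRPL17. The ratio of small over large subunit genes differed by -0.33 on the values as deposited, -0.11 with common median scaling and -0.10 with cyclic loess. The cause of these turns was not tested.

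The number of probes past the threshold was 99 with the 12 samples entered as if independent, 1 with a 1st-percentile pseudocount, 1 with the doublet as a random effect and 1 with an intensity trend and robust prior. Leaving out samples or doublets gave 0 to 2 (2 without atc6 samples 3 and 4, also with the normalization of 12 samples kept, and 1 without WT samples 3 and 4 or WT sample 3). With the doublet number as a replicate block the count was 0, and PRPS10 differed by 0.66 (adjusted p = 0.819). Leaving out doublets with the normalization kept, and samples 1 and 2 of both genotypes, were chosen after seeing the data. The filter for brighter probes removed PRPS10 and PRPS6, and averaging several probes of a gene was not run because each gene had 1. With 3 values per genotype, the median 95% interval of all probes extended 0.67 in log2 units on each side, and signal over background is unknown.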
